A study of Homo sapiens with 4 samples.

Results

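Glycolysis and the pentose phosphate pathway were followed here through 35 genes in MV4-11 cells, a human acute myeloid leukemia (AML) cell line, after knockdown of ANP32B. The genes were taken by their symbols from the list of glucose and lactate transporters, glycolytic enzymes, pentose phosphate enzymes and enzymes of glycogen and gluconeogenesis. Of the 35 genes, 33 were among the 18885 genes of the deposited table, and PFKFB2 and FBP1 were not analysed here. ENO2 lay under the limit for testing, so 32 genes were tested.

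The RNA-seq data came from 2 libraries of the control group (NC) and 2 libraries of the knockdown group (sh-ANP32B). All 4 libraries came from the same cell line with no other treatment named in the labels. The labels give no shRNA for the NC cells, whereas the study describes a control hairpin, sh-NC. If the NC cells carried no hairpin, effects of lentiviral infection and puromycin selection cannot be told apart from the loss of ANP32B. The study selected stable cell lines with puromycin, the table marks both knockdown libraries with S3, and the study used 3 hairpins, so a single hairpin may stand behind them. The labels do not say that the libraries came from separate cultures, so the spread between replicates may be technical.

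Glycolysis splits glucose into pyruvate in the cytosol, gives a small yield of ATP and feeds lactate dehydrogenase when pyruvate is not burned in mitochondria. The pentose phosphate pathway leaves glycolysis at glucose 6-phosphate, and its oxidative steps make NADPH while its later steps make ribose 5-phosphate for nucleotides. Proliferating leukemic blasts use both products for growth, whereas mature phagocytes use NADPH for the oxidative burst.

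Values are TPM, in which reads are divided by the length of their gene and every library is brought to nearly the same total, so levels of different genes can be set side by side. The depth of the libraries is unknown, because TPM keep no read numbers. Fold changes are differences of log2(TPM + 1), sh-ANP32B minus NC, from limma over the 16937 genes that reached 1 TPM in 2 or more libraries. Adjusted p-values are limma's with Benjamini-Hochberg adjustment over all these genes. A gene is called higher or lower here at an adjusted p below 0.05 with a log2 fold change beyond 0.5. ANP32B (ENSG00000136938), the targeted histone chaperone gene, was at 358 and 364 TPM in NC and at 54.1 and 49.3 TPM in sh-ANP32B. It was left at 14.3% of the control level, a log2 fold change of -2.78 (SE 0.056, limma adjusted p = 2.89e-05).

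The 8 markers of this AML line were all present, among them HOXA9 at 184 and 186 TPM in NC and at 175 and 176 TPM in sh-ANP32B. Of these 8, SPI1, PTPRC and CD4 were called higher and HOXA10 and MEIS1 lower. For this and the other marker lists, the shares over all genes tested were 17.9% called higher and 10.1% called lower. Of the 17 monocyte and macrophage markers, 13 were in the table and 12 of these were called higher. Their summed level was 655 and 645 TPM in NC and 6286 and 6245 TPM in sh-ANP32B. Most of each sum was LYZ alone, at 470.6 and 463.5 TPM in NC and at 5308 and 5260 TPM in sh-ANP32B. CSF1R did not pass the adjusted p. All 16 proliferation genes were called lower, with sums of 3413 and 3421 TPM in NC and 1590 and 1592 TPM in sh-ANP32B. Of the 12 neutrophil granule markers, 6 were in the table and 3 were called higher, with sums of 3458 and 3447 TPM against 5126 and 5014 TPM. Of the 8 T and NK cell markers 2 were in the table, of the 6 B cell markers 4, of the 6 erythroid markers 1, and of the 8 fibroblast and epithelial markers 0. The proliferation genes were thus lower, like most glycolytic genes described here, while the monocyte and neutrophil markers were higher and the AML markers went both ways. The part of these marker changes in the results on the glycolytic genes was not tested. In such bulk RNA, fewer cells of a type and less RNA per cell cannot be told apart.

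The promoters of the member with the highest fold change, HK3, and of the 3 members with the lowest, SLC2A1, GBE1 and LDHA, are given first, so that genes that moved in opposite directions can be read side by side. Each line holds the 250 bases before the RefSeq start (GRCh38.p14), 5′ to 3′ on the gene's strand. Capitals mark matches, on either strand, to CACGTG (the E-box that MYC and MAX bind), to ACGTG (the core of hypoxia response elements), to GAGGAA (a core of PU.1 sites) or to TTGCNNAA (a C/EBP core). The window of HK3 lies at chr5:176899347-176899596 on the minus strand, that of SLC2A1 at chr1:42958869-42959118 on the minus strand, that of GBE1 at chr3:81761646-81761895 on the minus strand and that of LDHA at chr11:18394313-18394562 on the plus strand.
HK3: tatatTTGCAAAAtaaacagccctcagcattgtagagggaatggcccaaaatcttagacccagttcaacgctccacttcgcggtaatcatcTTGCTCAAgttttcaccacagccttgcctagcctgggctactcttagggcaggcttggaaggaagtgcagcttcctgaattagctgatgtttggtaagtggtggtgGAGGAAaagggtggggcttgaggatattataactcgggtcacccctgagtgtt
SLC2A1: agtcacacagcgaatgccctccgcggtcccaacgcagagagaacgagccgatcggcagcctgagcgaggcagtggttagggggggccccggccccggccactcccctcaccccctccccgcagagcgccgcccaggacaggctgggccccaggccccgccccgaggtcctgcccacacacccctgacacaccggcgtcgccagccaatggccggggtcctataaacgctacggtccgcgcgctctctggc
GBE1: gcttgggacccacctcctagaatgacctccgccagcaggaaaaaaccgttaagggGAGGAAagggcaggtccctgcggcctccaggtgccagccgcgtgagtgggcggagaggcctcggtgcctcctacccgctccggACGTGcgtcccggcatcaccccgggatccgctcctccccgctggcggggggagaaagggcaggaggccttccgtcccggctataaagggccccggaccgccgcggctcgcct
LDHA: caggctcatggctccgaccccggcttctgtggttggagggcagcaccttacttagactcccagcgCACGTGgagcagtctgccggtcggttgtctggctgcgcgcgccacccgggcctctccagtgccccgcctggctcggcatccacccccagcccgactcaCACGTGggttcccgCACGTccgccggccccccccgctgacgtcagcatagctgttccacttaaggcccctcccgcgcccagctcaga

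HK3 held a GAGGAA match that begins at -53 and TTGCNNAA matches at -245 and -159, counted from the start site. LDHA held CACGTG at -185 and -87 and a further ACGTG match, written there as its reverse complement, at -73. GBE1 held ACGTG at -112 and GAGGAA at -195, and SLC2A1 held none of the 4 motifs in this window. Promoters were found for 33 of the 35 genes, all but SLC2A3 and PFKFB2, and 27 of these begin at the canonical GENCODE start. CACGTG stood in 4 of the 33 (12.1%; ALDOC, GAPDH, LDHA and PFKFB3), against 7.44% of all 19095 promoters. ACGTG, which every CACGTG also contains, stood in 13 of the 33 (39.4%), against 20.4% of all promoters. GAGGAA stood in 9 of the 33 (27.3%), against 23.5%, and TTGCNNAA in 1 of the 33 (3.03%; HK3), against 7.46%. These matches describe letters only, and binding was not measured.

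Most of the genes were lower after ANP32B knockdown. Of the 32 tested, 8 were called lower (SLC2A1, GBE1, LDHA, PGAM1, PFKFB4, RPIA, ENO1 and HK2), where 10.1% of all genes tested were called lower. Another 3 were called higher (HK3, PFKFB3 and SLC16A3), where 17.9% of all genes were called higher. At an adjusted p below 0.05 and any fold, 20 of the 32 were lower, against 19.7% of all genes, and 5 were higher, against 26.0% of all genes. The remaining 7 did not pass the adjusted p. The log2 fold change was below 0 for 26 genes and above 0 for 6, with a median of -0.32, beside a median of 0.08 over all genes tested (percentiles 25 and 75 at -0.26 and 0.45). Of the 11 called genes, 7 kept their call and direction in the reported fit and all 11 alternative fits, namely SLC2A1, HK3, PFKFB4, PGAM1, LDHA, RPIA and GBE1. Over all genes, 63.9% of the calls were higher ones, and this share was 51.1% with median-of-ratios scaling and 50.2% with quantile normalization.

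The 33 genes summed to 17795 and 18030 TPM in NC and to 13857 and 14285 TPM in sh-ANP32B, which is 1.78% and 1.80% of the nominal TPM total against 1.39% and 1.43%. The knockdown sum was 78.6% of the control sum, and both knockdown libraries lay below both NC libraries. With 2 libraries against 2, the exact two-sided permutation test gave p = 0.333, the smallest it can give. Levels spanned a wide range, from ENO2, below 1 TPM in every library, to GAPDH, at 3081 TPM or more in every library. The plot of TPM by gene shows the libraries of each group close together for most genes.

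**Figure D1:**
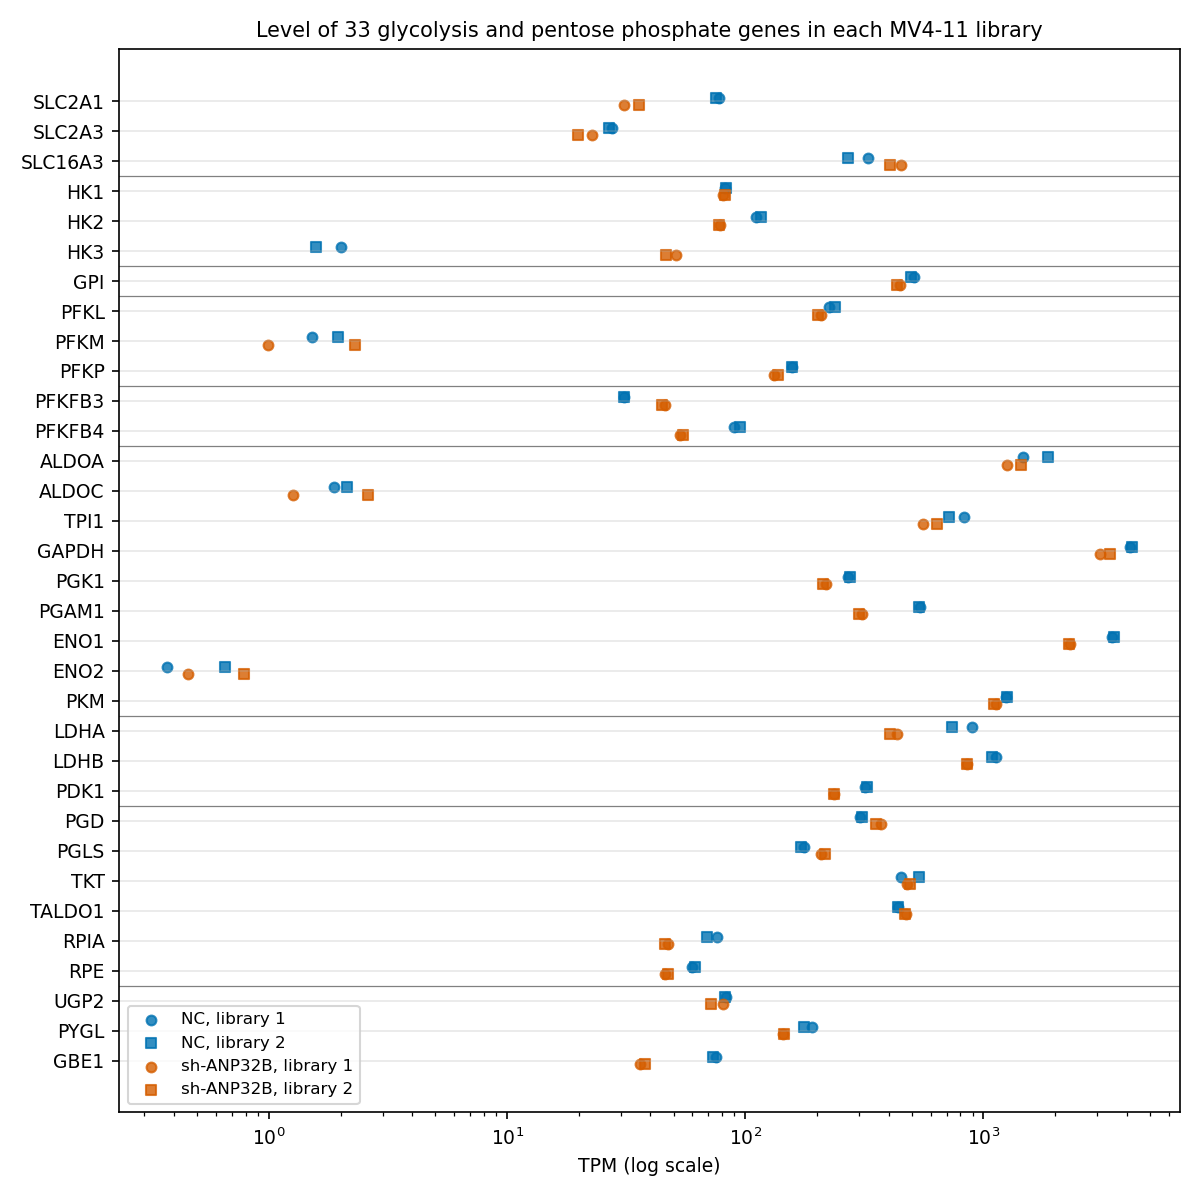
TPM on a log scale (x axis) of the 33 glycolysis and pentose phosphate genes (y axis, ordered by role) in the 2 NC libraries (blue) and the 2 sh-ANP32B libraries (orange). HK3 lies far to the right in both knockdown libraries, SLC2A1, GBE1, PGAM1 and LDHA lie to the left, and the libraries of HK1, TKT, PFKM, ALDOC and ENO2 overlap between groups.

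Of the transporter genes listed, SLC2A1 was called lower, SLC16A3 was called higher and SLC2A3 was lower by the adjusted p alone. SLC2A1 (ENSG00000117394, hg38, chromosome 1, 42925353 to 42958893, minus strand) encodes GLUT1, the basal glucose transporter of most cells, and was at 77.5 and 75.5 TPM in NC and at 31.0 and 35.8 TPM in sh-ANP32B. The groups did not overlap, and the mean after knockdown was 43.7% of that in NC. On the log2 scale the difference was -1.17 (SE 0.080, limma adjusted p = 0.000307), the lowest among the 32 genes. SLC2A3, which encodes the high-affinity transporter GLUT3, was at 27.6 and 26.7 TPM in NC and at 22.7 and 19.8 TPM in sh-ANP32B. Its log2 fold change of -0.34 passed the adjusted p (limma, 0.0274) but not the fold limit. Without NC replicate 1, without NC replicate 2 or without sh-ANP32B replicate 2, its adjusted p was 0.104, 0.0712 and 0.0987. Other transporter genes of this family went both ways. SLC2A6 was called higher (given with the other pathway genes). SLC2A9, the urate transporter gene, was at 21.8 and 22.2 TPM in NC and at 38.0 and 37.8 TPM in sh-ANP32B (log2 fold change 0.76, limma adjusted p = 0.000551). SLC2A5 was lower by the adjusted p alone, at 103 and 106 TPM in NC and at 81.6 and 81.8 TPM in sh-ANP32B (-0.35, limma adjusted p = 0.00201). SLC2A11 and SLC2A13 did not pass the adjusted p. SLC2A5, SLC2A9, SLC2A11 and SLC2A13 were named here after their values were seen.

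SLC16A3 encodes MCT4, which carries lactate out of the cell. It was at 327 and 271 TPM in NC and at 450 and 404 TPM in sh-ANP32B, so that both knockdown libraries lay above both NC libraries. The log2 fold change was 0.52 (SE 0.099, limma adjusted p = 0.00927), just over the fold limit, and was 0.42 with median-of-ratios scaling, 0.38 without NC replicate 2 and 0.44 without sh-ANP32B replicate 1. Of its exonic bases, 482 overlap those of CSNK1D on the opposite strand, and how strand was treated is not given in the sources used here. SLC16A1, the gene of the lactate transporter MCT1, was at 118 and 113 TPM in NC and at 70.5 and 71.4 TPM in sh-ANP32B (log2 fold change -0.69, limma adjusted p = 0.000296), the opposite direction to SLC16A3.

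Among the hexokinases, which trap glucose as glucose 6-phosphate, HK3 rose, HK2 fell and HK1 did not pass the test. HK3 (ENSG00000160883, chromosome 5, 176880869 to 176899346, minus strand), the hexokinase of myeloid cells, was at 2.00 and 1.58 TPM in NC and at 51.2 and 46.5 TPM in sh-ANP32B. It was hardly present in the control cells, and its mean TPM was 27.3-fold higher after knockdown. The log2 fold change was 4.16 (SE 0.13, limma adjusted p = 6.16e-05), the highest of the genes, and 4.70 with a pseudocount of 0.1. HK2 (chromosome 2, 74834127 to 74893359, plus strand), the inducible hexokinase of proliferating cells, was at 110 and 116 TPM in NC and at 78.2 and 77.7 TPM in sh-ANP32B. It was called lower, with a log2 fold change of -0.53 (SE 0.047, limma adjusted p = 0.000651), and it came to -0.50, short of the fold limit, when mitochondrial genes or NC replicate 2 were left out. HK1, the housekeeping hexokinase, was at 81.9 and 82.9 TPM in NC and at 80.7 and 82.2 TPM in sh-ANP32B (log2 fold change -0.02, SE 0.045, limma adjusted p = 0.796).

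The sum of the 3 hexokinase genes differed little, at 194 and 200 TPM in NC and 210 and 206 TPM in sh-ANP32B, while the shares of its members differed between the groups. HK3 held 1.03% and 0.788% of the sum in NC and 24.4% and 22.5% in sh-ANP32B. HK2 held 56.8% and 57.8% in NC and 37.2% and 37.7% in sh-ANP32B. HK1 held 42.1% and 41.4% in NC and 38.4% and 39.8% in sh-ANP32B. These shares did not overlap between the groups, and with 2 libraries against 2 each exact permutation p was 0.333.

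**Figure D2:**
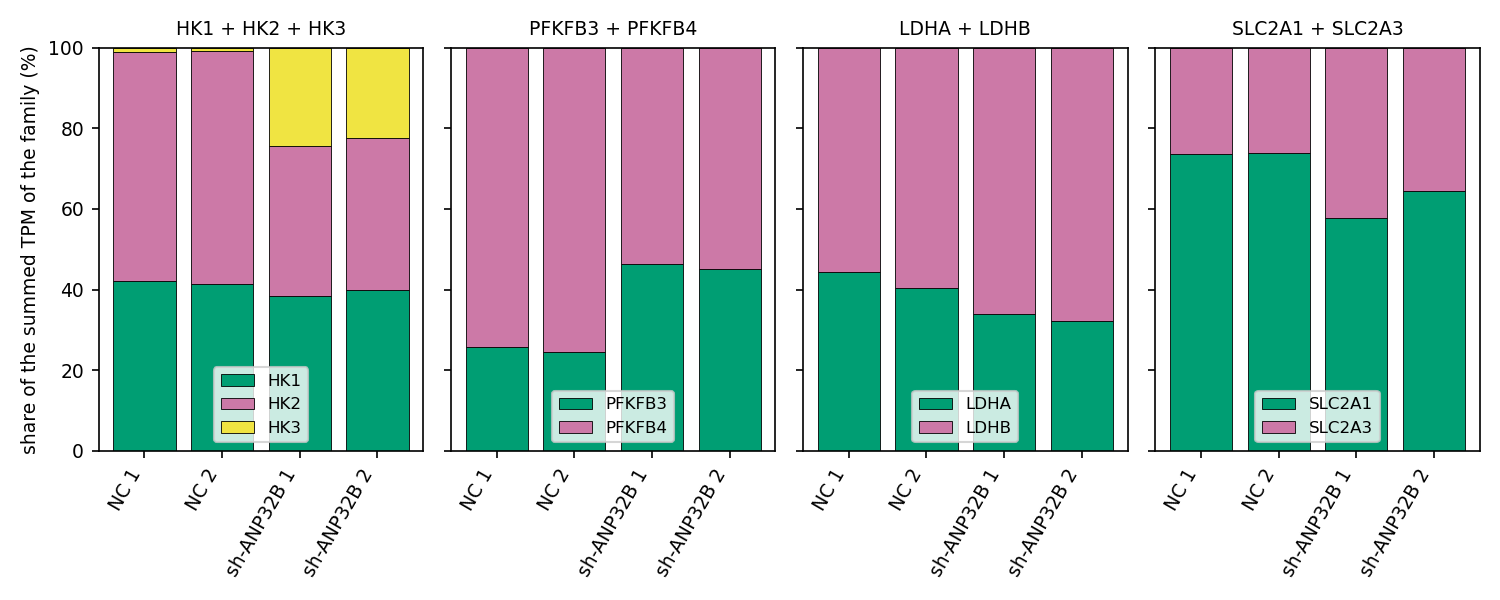
Share of the summed TPM (%, y axis) that each isozyme gene held in 4 families, HK1, HK2 and HK3, PFKFB3 and PFKFB4, LDHA and LDHB, and SLC2A1 and SLC2A3, with 1 bar per library (x axis). HK3 went from about 1% to over 22% of the hexokinase sum, and PFKFB3 from 25.7% and 24.5% to 46.4% and 45.1% of its family.

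Upper glycolysis held small falls in the enzymes and opposite changes in the genes that set their regulator. GPI, which turns glucose 6-phosphate into fructose 6-phosphate, was at 511 and 496 TPM in NC and at 446 and 434 TPM in sh-ANP32B (log2 fold change -0.19, SE 0.037, limma adjusted p = 0.00931). PFKL and PFKP, subunit genes of phosphofructokinase, the committed step, had log2 fold changes of -0.17 (limma adjusted p = 0.0270) and -0.22 (0.00934). PFKL did not pass with the replicate block, with quantile normalization, without mitochondrial genes or when any library other than NC replicate 1 was left out. PFKM, the muscle subunit, was low, at 1.51 and 1.95 TPM in NC and 0.990 and 2.30 TPM in sh-ANP32B, and its groups overlapped (log2 fold change -0.09, SE 0.30, limma adjusted p = 0.836). PFKL held 58.8% and 59.9% of the summed TPM of these subunits in NC and 61.1% and 59.2% in sh-ANP32B.

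PFKFB3 and PFKFB4 encode bifunctional enzymes that make and remove fructose 2,6-bisphosphate, the activator of phosphofructokinase. PFKFB3 (chromosome 10, 6144934 to 6254644, plus strand) was at 31.1 and 30.9 TPM in NC and at 46.0 and 44.9 TPM in sh-ANP32B, and its log2 fold change was 0.54 (SE 0.058, limma adjusted p = 0.00126). With median-of-ratios scaling it was 0.44, under the fold limit. PFKFB4 (chromosome 3, 48517684 to 48562015, minus strand) was at 89.8 and 95.1 TPM in NC and at 53.2 and 54.7 TPM in sh-ANP32B, and its log2 fold change was -0.77 (SE 0.053, limma adjusted p = 0.000319). Neither gene overlapped between the groups, and they moved in opposite directions. PFKFB3 held 25.7% and 24.5% of the pair's summed TPM in NC and 46.4% and 45.1% in sh-ANP32B.

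From GPI to lactate dehydrogenase, the 14 of the listed enzyme genes that were tested had log2 fold changes below 0, also under each of the 3 other scalings. Without NC replicate 2, 13 of the 14 were below 0, and without sh-ANP32B replicate 1, 12 of the 14. In the reported fit, 11 of the 14 passed the adjusted p and 3 were called lower (PGAM1, ENO1 and LDHA), with a median of -0.32. Over all genes tested, 19.7% were lower at any fold and 10.1% were called lower, with a median of 0.08. The stretch was drawn up after the values were seen. With quantile normalization 8 passed, and GAPDH, PKM and PFKL were among those that did not. The 15 genes of this stretch summed to 14880 and 15090 TPM in NC and to 10930 and 11410 TPM in sh-ANP32B, which is 74.5% of the control sum. Along the path, PGAM1 was left at 56.6% of its control level, LDHA at 51.3% and PKM at 89.1%.

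ALDOA, the main aldolase, was at 1472 and 1871 TPM in NC and at 1250 and 1433 TPM in sh-ANP32B (log2 fold change -0.31, SE 0.12), and its limma adjusted p of 0.0911 missed the threshold. Its adjusted p was 0.0123 with the replicate block, 0.0356 with median-of-ratios scaling and 0.0124 without NC replicate 1, and 1639 of its exonic bases overlap another gene on the same strand. ALDOC, the brain aldolase, was at 1.88 and 2.12 TPM in NC and at 1.26 and 2.60 TPM in sh-ANP32B, with overlapping groups (log2 fold change -0.07, SE 0.28, limma adjusted p = 0.850). TPI1, which interconverts the triose phosphates, was at 831 and 717 TPM in NC and at 555 and 636 TPM in sh-ANP32B (log2 fold change -0.38, limma adjusted p = 0.0216). Its adjusted p was 0.0664 without NC replicate 1 and 0.0648 without sh-ANP32B replicate 1.

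GAPDH, the dehydrogenase that yields NADH in glycolysis and a protein loading reference in the study, was at 4124 and 4185 TPM in NC and at 3081 and 3403 TPM in sh-ANP32B. The groups did not overlap, and the knockdown mean was 78.0% of the control mean (log2 fold change -0.36, SE 0.055, limma adjusted p = 0.00410). With quantile normalization the log2 fold change was -0.22 with an adjusted p of 0.142. GAPDH has 65 named pseudogenes, to which shared reads could have been assigned, and the 5 of them in the table summed to at most 12.2 TPM in a library. PGK1, which makes the first ATP of the pathway, had a log2 fold change of -0.34 (SE 0.037, limma adjusted p = 0.00134), from 271 and 275 TPM in NC to 218 and 213 TPM in sh-ANP32B.

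PGAM1 (ENSG00000171314, chromosome 10, 97426191 to 97433444, plus strand), the phosphoglycerate mutase, was at 540 and 535 TPM in NC and at 309 and 299 TPM in sh-ANP32B. Its replicates were close together, and the log2 fold change was -0.82 (SE 0.036, limma adjusted p = 0.000117). PGAM1 has 13 named pseudogenes, and its near-identical copy PGAM4 was at 2.94 and 3.05 TPM in NC and at 1.57 and 1.62 TPM in sh-ANP32B, so the split of reads between them is uncertain. ENO1 (chromosome 1, 8861000 to 8879190, minus strand), the main enolase, was at 3476 and 3520 TPM in NC and at 2313 and 2282 TPM in sh-ANP32B. In TPM this was the largest loss of any of the genes, and its log2 fold change was -0.61 (SE 0.033, limma adjusted p = 0.000191). With quantile normalization it was -0.44, under the fold limit.

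ENO3, the muscle enolase gene, was not among the 35 and went the other way, at 48.1 and 45.6 TPM in NC and at 90.2 and 75.5 TPM in sh-ANP32B (log2 fold change 0.80, SE 0.092, limma adjusted p = 0.00153), and it is named here after its values were seen. ENO2, the neuronal enolase, was at 0.375 and 0.652 TPM in NC and at 0.459 and 0.783 TPM in sh-ANP32B and was too low to be tested. PKM, whose enzyme makes pyruvate and ATP, was at 1242 and 1259 TPM in NC and at 1125 and 1103 TPM in sh-ANP32B. Its log2 fold change was -0.17 (SE 0.033, limma adjusted p = 0.0106), and -0.01 with quantile normalization (adjusted p = 0.769). The table gives 1 value per gene, so the PKM1 and PKM2 splice forms could not be told apart.

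LDHA, LDHB and PDK1, which act on the use of pyruvate, were lower by the adjusted p. Among genes outside the 35 with like roles, PDK2 (log2 fold change 0.81, limma adjusted p = 0.00366) and PDP1 (0.54, 0.00876) were called higher and PDK3 was higher by the adjusted p alone (0.34, 0.0384). These 3 were named after their values were seen. LDHA (ENSG00000134333, chromosome 11, 18394560 to 18408425, plus strand), the subunit gene that predominates where lactate is made, was at 897 and 740 TPM in NC and at 435 and 404 TPM in sh-ANP32B. The groups lay far apart, and the log2 fold change was -0.96 (SE 0.094, limma adjusted p = 0.000917). LDHB, the subunit gene of tissues that take up lactate, was at 1129 and 1090 TPM in NC and at 850 and 854 TPM in sh-ANP32B (log2 fold change -0.38, SE 0.035, limma adjusted p = 0.000728). Of the exonic bases of LDHB, 997 overlap another gene on the same strand. LDHA held 44.3% and 40.4% of the LDH sum in NC and 33.9% and 32.1% in sh-ANP32B, groups that did not overlap.

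PDK1, the kinase that shuts pyruvate dehydrogenase, was at 317 and 326 TPM in NC and at 237 and 236 TPM in sh-ANP32B. Its log2 fold change of -0.44 (SE 0.037, limma adjusted p = 0.000522) stayed within the fold limit, and with median-of-ratios scaling it was -0.54. The exons of PDK1 overlap those of PDK1-AS1 by 445 bases on the opposite strand. The plot of fold changes shows these falls below the middle of all genes.

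**Figure D3:**
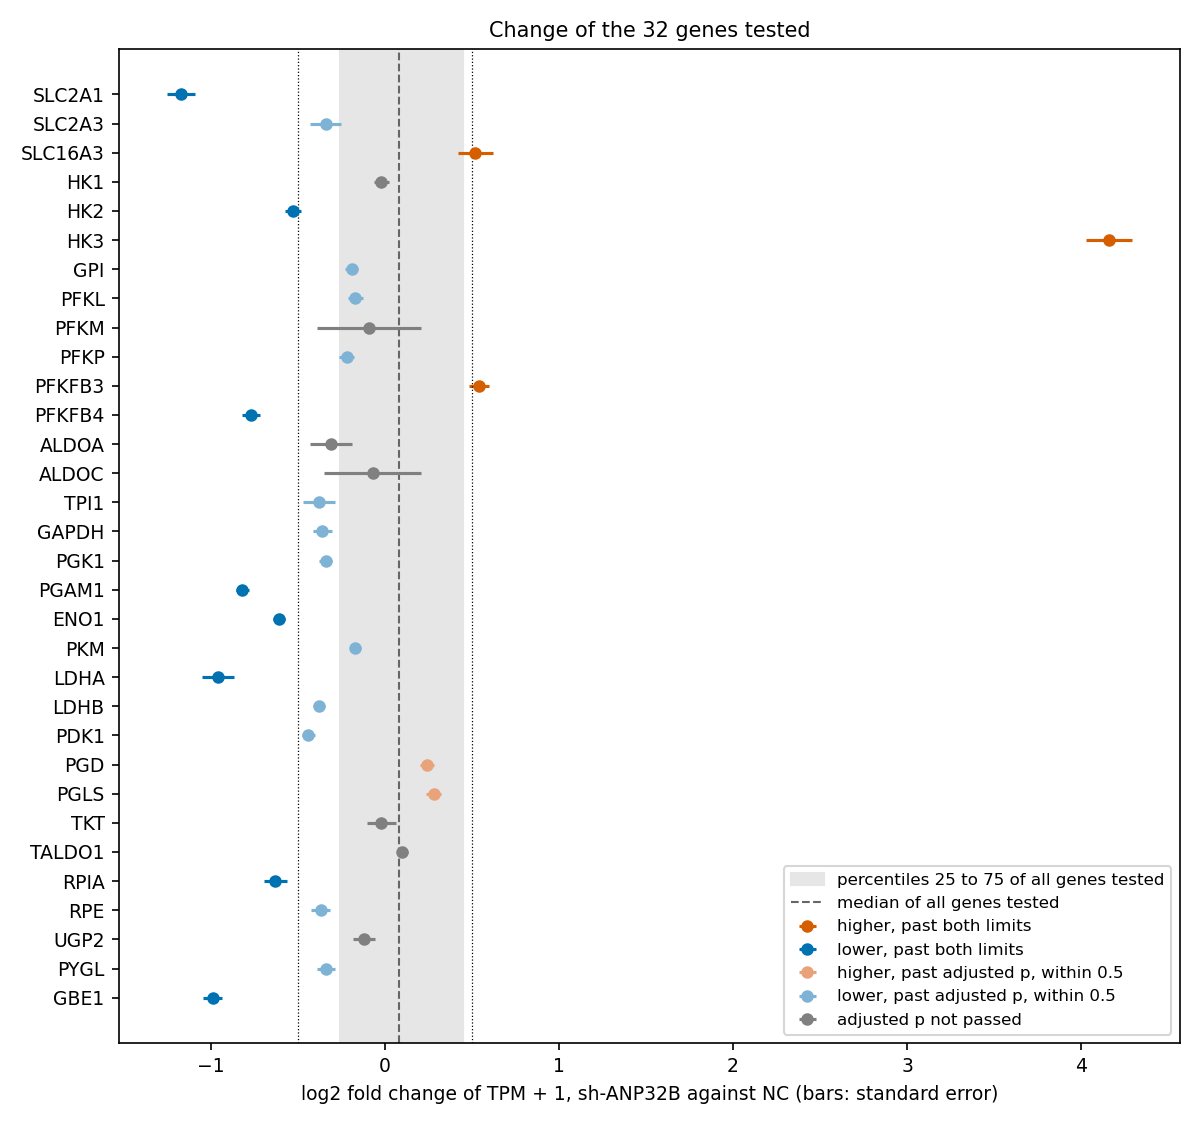
Log2 fold change of TPM + 1, sh-ANP32B against NC (x axis; bars, standard error from limma), of the 32 genes tested (y axis, ordered by role). Dotted lines mark the fold limits of -0.5 and 0.5, the dashed line the median of all genes at 0.08 and the grey band their percentiles 25 to 75. HK3 at 4.16 lies far right, the other 2 genes called higher lie near 0.5, and the 8 called lower lie between -1.17 and -0.53.

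In the pentose phosphate pathway, the genes of oxidative steps given here were higher and RPIA, RPE, PRPS1 and PRPS2, which lead to ribose 5-phosphate, its isomers and its activated form, were lower. These branches were drawn up after the values were seen, and the ribokinase gene RBKS, which also makes ribose 5-phosphate, was called higher. Among the listed genes, PGLS, the lactonase, was at 177 and 172 TPM in NC and at 208 and 216 TPM in sh-ANP32B (log2 fold change 0.28, SE 0.042, limma adjusted p = 0.00414). PGD, which makes the second NADPH of the path, was at 304 and 308 TPM in NC and at 370 and 354 TPM in sh-ANP32B (log2 fold change 0.24, SE 0.039, limma adjusted p = 0.00522). Both passed the adjusted p within the fold limit, and in both the groups did not overlap. Their fold changes lay inside percentiles 25 and 75 of all genes tested (-0.26 and 0.45), and 26.0% of all genes were higher at any fold. With median-of-ratios scaling the log2 fold change was 0.18 for PGLS and 0.14 for PGD.

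H6PD, which carries out oxidative steps of the pathway in the endoplasmic reticulum, was not among the 35 but belongs to the same branch. It was at 25.6 and 29.7 TPM in NC and at 57.7 and 60.1 TPM in sh-ANP32B (log2 fold change 1.07, SE 0.085, limma adjusted p = 0.000468) and was called higher. PGLS, PGD and H6PD each had an adjusted p below 0.05 and a higher level in each of the 11 alternative fits. Their sum was 507 and 510 TPM in NC and 636 and 630 TPM in sh-ANP32B, 125% of the control sum.

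RPIA (ENSG00000153574, chromosome 2, 88691673 to 88750929, plus strand), the isomerase that makes ribose 5-phosphate, was at 76.3 and 69.1 TPM in NC and at 47.6 and 45.9 TPM in sh-ANP32B. The groups did not overlap, and the log2 fold change was -0.63 (SE 0.067, limma adjusted p = 0.00119). RPE, the epimerase that makes xylulose 5-phosphate, was at 59.96 and 61.7 TPM in NC and at 46.0 and 47.5 TPM in sh-ANP32B (log2 fold change -0.37, SE 0.054, limma adjusted p = 0.00334). RPE has 6 named pseudogenes and shares 840 exonic bases with KANSL1L on the opposite strand. PRPS1 and PRPS2, which turn ribose 5-phosphate into the activated form PRPP for nucleotide synthesis, are not among the 35 genes, and both were called lower. PRPS1 was at 66.3 and 68.2 TPM in NC and at 33.4 and 31.97 TPM in sh-ANP32B (log2 fold change -1.02, limma adjusted p = 0.000196), and PRPS2 at 51.5 and 57.2 TPM against 28.1 and 29.8 TPM (-0.89, 0.000570).

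The 4 genes RPIA, RPE, PRPS1 and PRPS2 summed to 254 and 256 TPM in NC and to 155 and 155 TPM in sh-ANP32B, 60.8% of the control sum. TKT and TALDO1, the transketolase and transaldolase that link the pathway back to glycolysis, stood between these branches at 103% of their control sum. TKT was at 449 and 535 TPM in NC and at 478 and 490 TPM in sh-ANP32B, so its groups overlapped (log2 fold change -0.02, SE 0.083, limma adjusted p = 0.884). TALDO1 was at 438 and 439 TPM in NC and at 473 and 467 TPM in sh-ANP32B, and its log2 fold change of 0.10 (SE 0.033) had a limma adjusted p of 0.0545. It had an adjusted p of 0.0218 with quantile normalization and 0.0236 without mitochondrial genes. Whether the branches differ from each other was not tested.

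**Figure D4:**
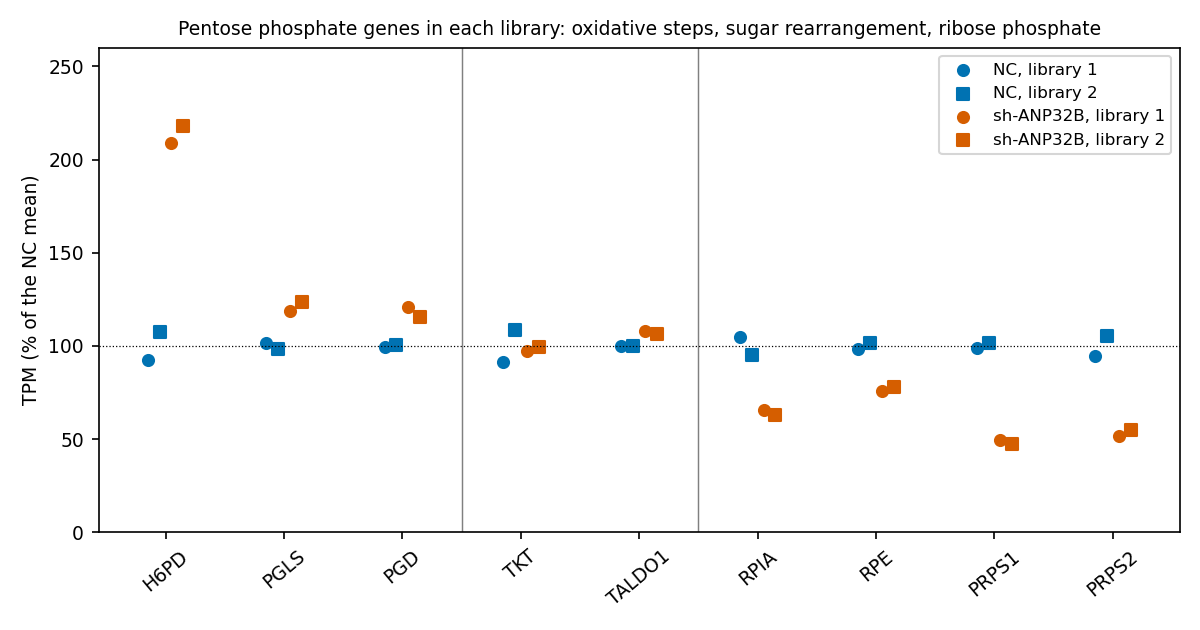
TPM of 9 pentose phosphate genes as percent of the NC mean (y axis) in each NC library (blue) and sh-ANP32B library (orange), with lines that part the oxidative genes, the sugar rearranging genes and the ribose phosphate genes (x axis). The oxidative genes lie above 100% in both knockdown libraries, TKT and TALDO1 near 100% and the ribose phosphate genes below it.

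Of the glycogen genes, GBE1 (ENSG00000114480, chromosome 3, 81489703 to 81761645, minus strand), the branching enzyme, was at 75.02 and 73.4 TPM in NC and at 36.2 and 37.8 TPM in sh-ANP32B. The replicates were close, and the log2 fold change was -0.99 (SE 0.055, limma adjusted p = 0.000196). PYGL, the glycogen phosphorylase of liver and leukocytes, was at 191 and 176 TPM in NC and at 143 and 145 TPM in sh-ANP32B (log2 fold change -0.34, SE 0.052, limma adjusted p = 0.00412). UGP2, which makes the UDP-glucose used for glycogen, was at 83.3 and 82.0 TPM in NC and at 80.4 and 71.97 TPM in sh-ANP32B. Its log2 fold change of -0.12 (SE 0.065) did not pass the adjusted p (limma, 0.191).

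The other genes of these pathways were near the values of all genes. Of 83 further genes listed for glucose transport, glycolysis, pyruvate entry, the pentose phosphate pathway, gluconeogenesis and glycogen, 55 were tested, 11 were called higher and 5 lower, and their median log2 fold change was 0.10. Over all genes, 17.9% were called higher and 10.1% lower, with a median of 0.08. The 5 highest of those called were LDHD, SLC2A6, GAA, H6PD and RBKS. LDHD, the mitochondrial D-lactate dehydrogenase gene, was at 0.406 and 0.865 TPM in NC and at 14.8 and 17.5 TPM in sh-ANP32B (log2 fold change 3.40, limma adjusted p = 0.000223). It reached the limit for testing only through the knockdown libraries, and its log2 fold change was 4.54 with a pseudocount of 0.1. SLC2A6, the gene of the lysosomal transporter GLUT6, was at 3.90 and 4.69 TPM in NC and at 17.7 and 21.0 TPM in sh-ANP32B (1.94, 0.000371). GAA, the lysosomal enzyme that digests glycogen, was at 140 and 142 TPM in NC and at 427 and 437 TPM in sh-ANP32B (1.61, 4.27e-05). RBKS, the ribokinase gene, was low, at 0.561 and 1.19 TPM in NC and at 2.75 and 2.11 TPM in sh-ANP32B (0.88, 0.0380), and its adjusted p was 0.0632 with the replicate block. None of these overlapped between the groups, but they were picked as the highest of those called, so this adds no support.

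The 5 lowest of those called were PRPS1, PRPS2, SLC37A4, SLC16A1 and PGAM4. SLC37A4, the glucose 6-phosphate carrier of the endoplasmic reticulum, was at 50.7 and 55.1 TPM in NC and at 30.3 and 34.1 TPM in sh-ANP32B (log2 fold change -0.70, limma adjusted p = 0.00168). The number of these genes called higher and lower was 8 and 8 with median-of-ratios scaling and 7 and 8 with quantile normalization.

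Among 15 genes of factors known to act on glycolytic genes, 12 were tested, 3 were called higher and 1 lower, beside 17.9% and 10.1% of all genes. MYC, which activates many glycolytic genes, was at 376 and 370 TPM in NC and at 240 and 236 TPM in sh-ANP32B (log2 fold change -0.65, SE 0.036, limma adjusted p = 0.000191). MAX, its partner, had a log2 fold change of -0.14 (limma adjusted p = 0.105). TXNIP, which holds back glucose uptake and is induced by glucose through the MondoA factor, was at 103 and 103 TPM in NC and at 241 and 241 TPM in sh-ANP32B (1.21, SE 0.038, limma adjusted p = 6.52e-05). MLXIP, the MondoA gene, was at 39.1 and 41.6 TPM in NC and at 68.6 and 65.7 TPM in sh-ANP32B (0.72, limma adjusted p = 0.000539), and MLX, its partner, had a log2 fold change of 0.28 (0.0356). MLXIPL, ARRDC4 and EGLN3 were not analysed here.

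HIF1A, the oxygen-regulated factor that activates most glycolytic genes, was at 39.6 and 35.7 TPM in NC and at 41.6 and 41.8 TPM in sh-ANP32B. Its log2 fold change of 0.14 (SE 0.071) had a limma adjusted p of 0.148, and its mRNA says nothing of its protein, which is set mainly by degradation. EPAS1, the HIF-2α gene, was low and higher after knockdown, at 4.87 and 3.95 TPM in NC and 13.2 and 11.4 TPM in sh-ANP32B (log2 fold change 1.30, limma adjusted p = 0.00162). ARNT, the partner of both, had a log2 fold change of 0.32 (limma adjusted p = 0.0127). EGLN1, the main prolyl hydroxylase that marks HIF-1α for degradation, had one of -0.33 (0.0197), while EGLN2, VHL and HIF1AN had -0.02, 0.11 and 0.34 and did not pass.

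Hypoxia-induced genes outside the pathway gave a median log2 fold change of -0.26 over 18 tested, of which 5 were called lower and 1 higher, beside a median of 0.08 and shares of 10.1% and 17.9% over all genes. DDIT4, an inhibitor of mTORC1, was at 131 and 134 TPM in NC and at 48.5 and 48.7 TPM in sh-ANP32B (log2 fold change -1.43, limma adjusted p = 6.52e-05). ERO1A, the oxidase of disulfide bond formation, was at 72.2 and 72.3 TPM in NC and at 46.0 and 46.2 TPM in sh-ANP32B (-0.64, 0.000423), and ANKRD37 at 26.8 and 27.96 TPM against 14.3 and 20.6 TPM (-0.64, 0.0259). SLC7A11, the cystine transporter gene, was the 1 called higher, at 5.03 and 4.76 TPM in NC and 7.20 and 7.62 TPM in sh-ANP32B (0.51, 0.0252). At any fold 8 of the 18 were lower and 4 higher by the adjusted p, beside 19.7% and 26.0% of all genes. The 4 higher include NDRG1 (0.43), PLOD1 (0.46) and WSB1 (0.40), named after their values were seen.

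The 33 genes lay on 14 chromosomes, with 6 of them on chromosome 12 (SLC2A3, PFKM, TPI1, GAPDH, ENO2 and LDHB). GAPDH, TPI1 and ENO2 lie near each other, from 6534512 to 6923698. The plot of the alternative fits shows the range of each gene, and the call was lost in at least 1 alternative fit for SLC16A3, HK2, PFKFB3 and ENO1.

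**Figure D5:**
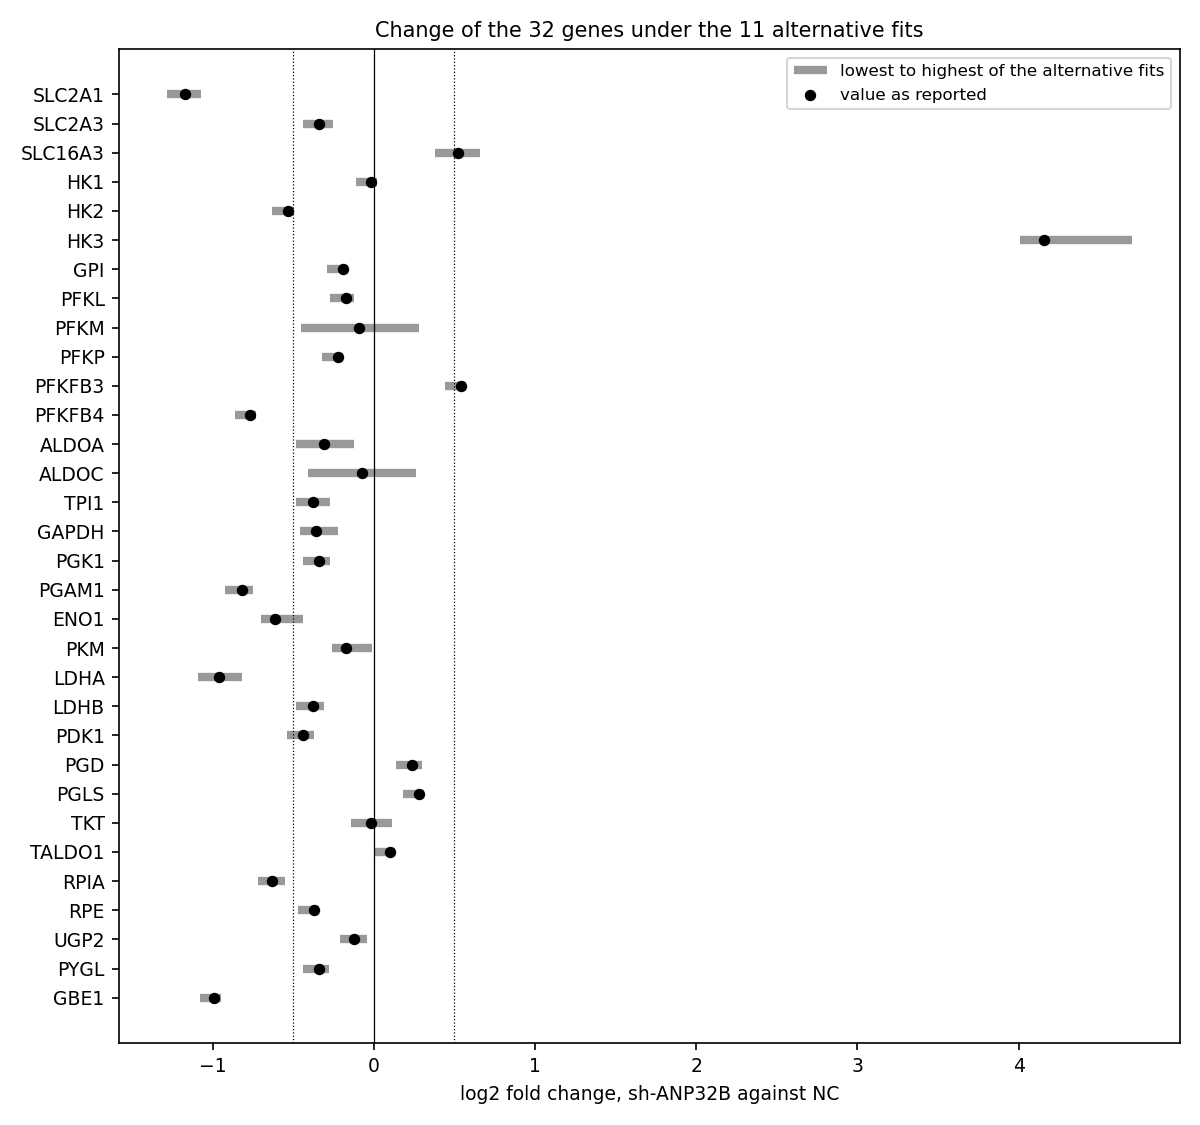
Log2 fold change (x axis) of the 32 genes (y axis) as reported (points) and from the lowest to the highest of 11 alternative fits (grey bars), with dotted lines at -0.5 and 0.5. The bars of SLC2A1, HK3, PFKFB4, PGAM1, LDHA, RPIA and GBE1 stay beyond the fold limit, and those of HK1, PFKM, ALDOC and TKT cross 0.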

How the data were processed

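RNA from MV4-11 cells was sequenced for the study, with 2 NC and 2 sh-ANP32B libraries grouped by their labels. Per the submitters' processing notes, reads were aligned with HISAT2 2.0.5 and hg38. The authors deposited 1 value per gene and library, taken as TPM because the libraries total 997271 to 998546 and no value step is shared. The tool that made the TPM, its annotation and its handling of strand are not given in the sources used here. TPM keep no read numbers, so no counting error can be given.

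Identifiers were matched to GENCODE version 44 symbols, and 17290 of 18885 had one. Mitochondrial genes held 15.9% and 15.4% of the TPM in NC and 17.6% and 17.4% in sh-ANP32B. The columns marked S3 were taken as sh-ANP32B, the only group besides NC. Differences were tested with limma 3.58.1 (R 4.3.3), lmFit followed by trended eBayes, on log2(TPM + 1), over 16937 genes that reached 1 TPM in 2 or more libraries. The study's DESeq2 test needs counts and was not used. Its fold limit of 0.5 was kept, with an adjusted p because all genes were tested. Isozyme shares and sums were compared by an exact two-sided permutation test. The replicate numbers were checked for pairing, and after subtraction of group means same-numbered libraries correlated at -0.0232. The reported fit therefore has no block.

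The genes and lists were chosen with earlier results of these data known. Named were all listed genes, ANP32B, all regulators, the 5 highest and 5 lowest called among the other pathway genes, up to 3 each of the called hypoxia targets, and marker counts with examples. H6PD, PRPS1, PRPS2 and SLC16A1 fall under this rule. The branches of the pentose phosphate pathway and the stretch from GPI to LDH were drawn up after the values were seen. Promoters came from RefSeq (GRCh38.p14). 1 gene of the other pathway lists is not reported here. The limma fit was tested on simulated data. Python 3.11.15 with pandas 2.3.3, scipy 1.17.1 and matplotlib 3.10.9 made the tables and plots. The alternatives were the replicate block, 2 other filters, a pseudocount of 0.1, 3 other scalings, an unadjusted p, a fold limit of 1 and each library left out in turn.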

Additional observations from a re-analysis of the deposited data

How the results depend on the processing

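Over the 32 tested genes and ANP32B, 362 fold changes were compared with an alternative fit. The direction and the call were the same in 346, the call was lost in 7 and gained in 1, and the sign was opposite in 8. A call needs both limits, so genes not called in either fit count as the same even where their adjusted p crossed 0.05. GAPDH and PKM with quantile normalization are such cases. With the replicate block, 3 of the genes were called higher and 8 lower, as in the fit without it, and the number lower at any fold was 20 in both. PFKL lost its adjusted p (0.0526) under the block and ALDOA gained one (0.0123), and no call among the 35 genes changed. Of the other pathway genes named, RBKS (0.0632) and PGAM4 (0.0620) lost their calls under the block. The same-numbered libraries shared only a number.

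With a fold limit of 1, 1 of the genes was called higher and 1 lower, as were 4 and 1 of the other pathway genes and 1136 and 273 of all genes. Median-of-ratios scaling left 1 of the genes called higher and made 8 of the other pathway genes lower, and quantile normalization gave 7 of the latter higher and 8 lower. The median of the 32 genes was -0.42 with median-of-ratios scaling, -0.29 with quantile normalization, -0.29 without mitochondrial genes and from -0.37 to -0.25 with libraries left out in turn. The median of all genes was -0.00 with median-of-ratios scaling and -0.04 with quantile normalization, a shift of -0.08 and -0.11, so the genes stayed below it. The knockdown sum was 73.4% of the control sum with median-of-ratios scaling and 80.4% without mitochondrial genes.

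The sign of a fold change turned in HK1, TKT, PFKM and ALDOC, which did not pass the test. HK1 was at 0.01 with quantile normalization and 0.02 without mitochondrial genes, and TKT at 0.02 with either. With libraries left out in turn, TKT ranged from -0.14 to 0.11, PFKM from -0.45 to 0.28 (0.03 without NC replicate 2) and ALDOC from -0.41 to 0.26. The difference in the PFKL share then ranged from -0.136 to 1.74 percentage points and that in the ALDOC share from -0.02 to 0.0604. The causes were not tested. With 2 libraries per group and unknown depth, genes near 1 TPM are the least certain.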
